A study of Rattus norvegicus with 63 samples.

Results

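Glutamate released at synapses is cleared by sodium-driven transporters, and much of it is turned into glutamine in astrocytes. Slc1a2 (GLT1) and Slc1a3 (GLAST) are the transporters of astrocytes, Slc1a1 (EAAC1) is found mainly on neurons, and Glul encodes glutamine synthetase, the astrocytic enzyme that joins ammonia to glutamate. Less glutamate transporter, above all GLT1 in the nucleus accumbens, is a known outcome of cocaine self-administration in rats. The 4 genes were followed here by every probe set that the platform annotation gives to 1 of them and to no other gene. These were 14 of the 1263 probe sets of the array that are not controls: 3 for Slc1a1, 3 for Slc1a2, 4 for Slc1a3 and 4 for Glul.

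The rats could self-administer cocaine into a vein, at 0.25 mg an injection, for 0 h (no access, drug-naive rats), 1 h (short access) or 6 h (long access) each day. The labels give 8 rats for each access group and no strain, sex or age. Total RNA of 6 dissected brain regions was hybridised to 63 Affymetrix rat neurobiology arrays, with 4 arrays per access group for amygdala, nucleus accumbens and lateral hypothalamus and 3 for septum, medial prefrontal cortex and ventral tegmental area. The labels do not say whether an array held RNA of 1 rat or a pool, or which regions came from the same rat, so p-values measure the spread between these arrays. All values below are log2 signals after each array was scaled to a common mean, and a value of 5 is the floor. A difference was called where limma gave an adjusted p under 0.05 over all probe sets tested.

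The labels of the ventral tegmental area and the lateral hypothalamus were set beside a few genes, and those of the other regions were not. The summed signal of Th, Slc6a3, Slc18a2 and Ddc lay between 19746 and 23165 in the ventral tegmental area and between 171 and 1592 elsewhere. That of Oxt, Avp and Gal, which does not tell the lateral hypothalamus from other hypothalamic tissue, lay between 16004 and 22622 in that region. It ranged from 411 to 10497 over the amygdala arrays, so that these dissections differed widely in peptide transcripts. Antisense control probe sets in the lateral hypothalamus read 8.13 ± 0.21 with no access, 6.84 ± 0.17 with short and 6.75 ± 0.15 with long access (SD, n = 4 arrays each), and bacterial spike-in controls read 12.05, 11.61 and 11.39. The no access arrays of that region therefore stood apart in measures that hold no rat messenger RNA. In the medial prefrontal cortex the 3 arrays numbered 3, 1 in each access group, had a log2 ratio of the 3' to the 5' actin probe set between 1.35 and 1.93. It was at most 0.78 in the other cortical arrays and at most 0.62 in the 54 arrays of other regions.

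The transporters and the enzyme were laid out differently over the 6 regions. Slc1a1 had its highest level in the medial prefrontal cortex and its lowest in the ventral tegmental area by all 3 probe sets, Slc1a2 was highest in the septum and lowest in the cortex by the 2 probe sets above the floor, and Glul was lowest in the cortex by all 4 probe sets. The place of the cortex in the orders of U15098_at and Glul rc_AI232783_s_at changed without the 3 cortical arrays numbered 3, and with quantile normalization U15098_at was lowest in the ventral tegmental area. Slc1a3 was highest in the septum by 3 of its 4 probe sets, while the other, X63744_at, was lowest there. Of 195 comparisons between pairs of regions over the 13 probe sets bright enough to test, 23 passed at 2-fold or more. Over all probe sets 18.4% of such comparisons passed. Of the 23, 7 were of Slc1a2 rc_AI044517_g_at and 5 of Slc1a3 X63744_at, which did not meet the minimum signal in every region. Without the fold threshold 135 of the 195 passed, so most of the differences that passed were smaller than 2-fold. The share over all probe sets was not taken without that threshold, and the 135 are not read as particular to these genes. In the plot of all arrays the 6 regions run from septum to cortex.

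**Figure D1:**
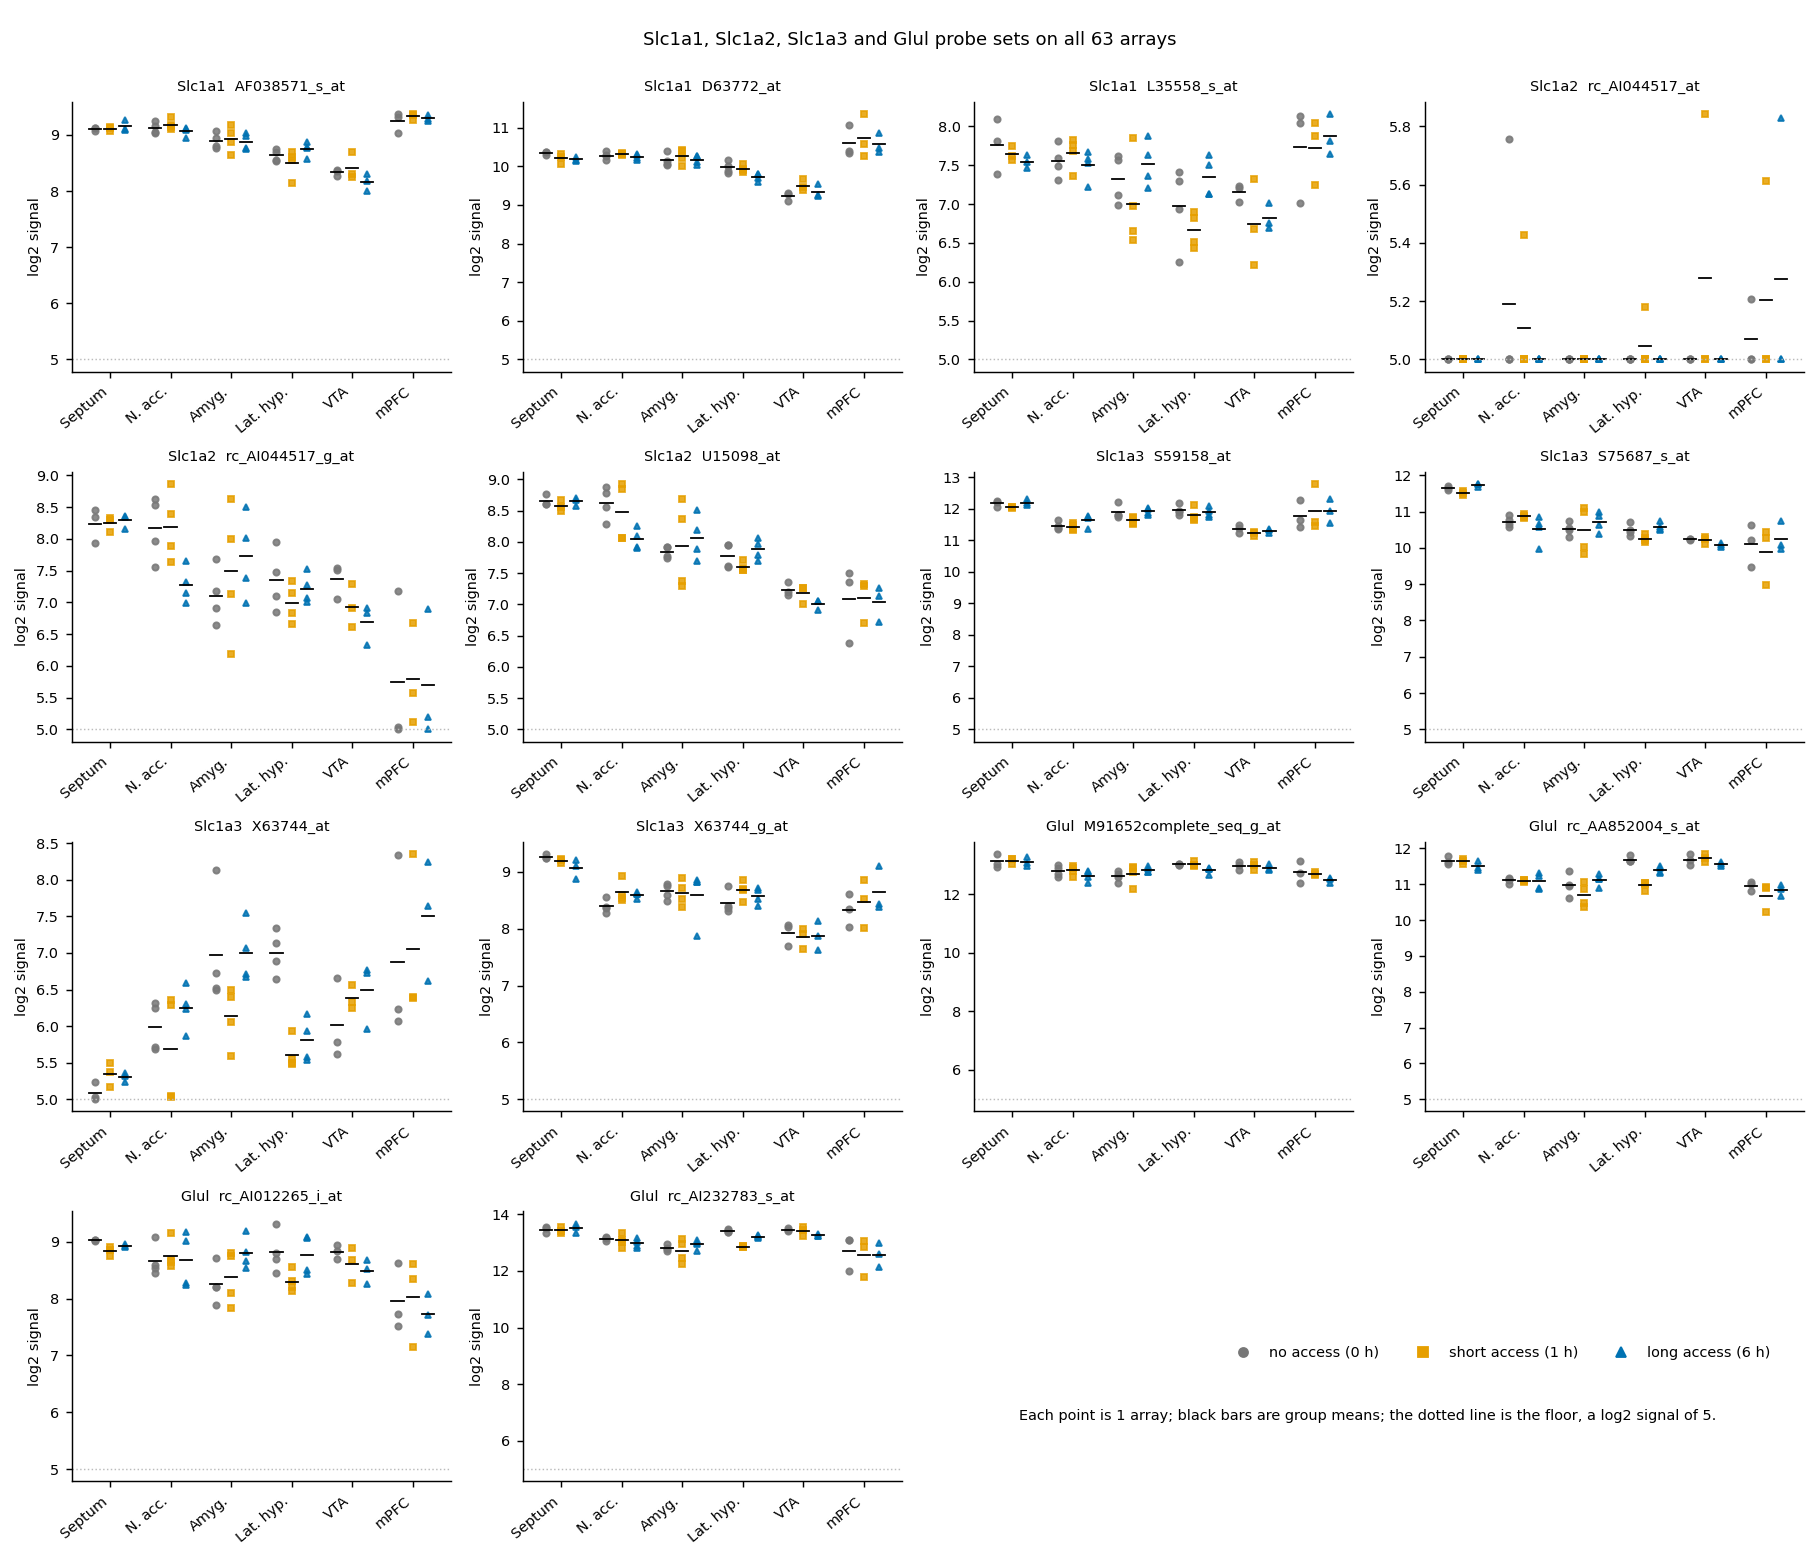
Log2 signal (y axis) of each of the 14 probe sets in the 6 regions (x axis), with 1 point per array and a black bar at each group mean, for no access (grey circles), short access (orange squares) and long access (blue triangles). Slc1a2 peaks in the septum and nucleus accumbens by 2 probe sets while the other, rc_AI044517_at, lies at the floor in 56 of 63 arrays, and Slc1a3 X63744_at runs against the other 3 Slc1a3 probe sets.

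Slc1a1, the neuronal transporter, had levels of 10.63 ± 0.42 in the medial prefrontal cortex and 9.36 ± 0.14 in the ventral tegmental area by D63772_at (SD within access groups, n = 9 arrays each). This difference of 1.27 ± 0.09 (SE), 2.41-fold, was the only Slc1a1 pair to pass at 2-fold. Between these extremes came the nucleus accumbens at 10.28, septum at 10.24, amygdala at 10.20 and lateral hypothalamus at 9.88. Of the 5 neighbours in this order 3 differed (adjusted p under 0.05, limma), and nucleus accumbens against septum and septum against amygdala did not. Of the 3, nucleus accumbens against cortex did not pass without the 3 cortical arrays numbered 3 (-0.12, adjusted p = 0.117, limma). AF038571_s_at gave the same order, 9.29 in the cortex, 9.12 in both nucleus accumbens and septum, 8.90 in the amygdala, 8.63 in the lateral hypothalamus and 8.30 in the ventral tegmental area. All its neighbours differed (adjusted p under 0.05, limma) but nucleus accumbens and septum. By this probe set nucleus accumbens against cortex still passed without the 3 cortical arrays numbered 3 (-0.20, adjusted p = 0.0268, limma). L35558_s_at, the noisiest of the 3, spanned 7.77 in the cortex and 6.90 in the ventral tegmental area, and none of its neighbours in order differed. Over the 18 group means D63772_at had a correlation of 0.94 with AF038571_s_at and 0.74 with L35558_s_at.

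Slc1a2, the main glutamate transporter of forebrain astrocytes, was highest in the septum. U15098_at read 8.63 ± 0.08 in the septum and 7.08 ± 0.44 in the medial prefrontal cortex (SD within access groups, n = 9 arrays each), 2.94-fold apart. The nucleus accumbens followed the septum at 8.38 and did not differ from it (adjusted p = 0.132, limma). Amygdala and lateral hypothalamus, at 7.94 and 7.75, did not differ either (adjusted p = 0.195), nor did the ventral tegmental area, at 7.14, and the cortex. rc_AI044517_g_at kept the same order of all 6 regions, from 8.26 ± 0.19 in the septum down to 5.74 ± 1.05 in the cortex, where it was below the minimum for testing within the region. Of its 9 cortical arrays 2 lay at the floor. The septum exceeded the cortex by a log2 difference of 2.52, which was 1.79 with quantile normalization and 1.91 with values as deposited. Of the 15 pairs of regions of this probe set 7 passed, 5 of them against the cortex. The probe set entered these tests through the other 5 regions, where it was higher, so those 5 calls are partly set by the minimum. The 2 probe sets had a correlation of 0.90 over the 18 group means and of 0.65 between arrays within groups. The other Slc1a2 probe set, rc_AI044517_at, was above the floor in 7 arrays only, at most at 5.84, and was tested nowhere.

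Slc1a3, the transporter of Bergmann glia and other astrocytes, was highest in the septum by S59158_at (12.13 ± 0.08), S75687_s_at (11.63 ± 0.05) and X63744_g_at (9.18 ± 0.11). The lowest region was the ventral tegmental area for S59158_at at 11.29 ± 0.09 and X63744_g_at at 7.89 ± 0.21, and the medial prefrontal cortex for S75687_s_at at 10.09 ± 0.62 (SD within access groups, n = 9 arrays each). The septum exceeded the region next below it in all 3, by 0.25 (adjusted p = 0.0391), 0.93 (6.35e-08) and 0.55 (1.78e-05, limma). X63744_at read 5.25 ± 0.13 in the septum, near the floor, and 7.15 ± 1.09 in the cortex. It passed the minimum signal only in the amygdala and the cortex, where it was high, so its 5 called pairs of regions are partly set by that minimum. Its correlation with S75687_s_at over the 18 group means was -0.70, although X63744_at and X63744_g_at carry the same accession and differ only in the suffix, which marks shared probes. In Affymetrix names g and s stand for probes that can match more than 1 transcript and i for an incomplete set.

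Glul had its highest level in the septum by 3 probe sets, while rc_AA852004_s_at peaked in the ventral tegmental area (with quantile normalization in the septum). The largest span was that of rc_AI012265_i_at, with 8.93 ± 0.05 in the septum and 7.91 ± 0.60 in the medial prefrontal cortex (SD within access groups, n = 9 arrays each), 2.04-fold apart and the only Glul pair to pass. M91652complete_seq_g_at spanned 13.13 in the septum and 12.66 in the cortex, rc_AI232783_s_at 13.48 and 12.62. rc_AA852004_s_at read 11.66 in the ventral tegmental area against 10.83 in the cortex. Most regions next to each other in these orders did not differ: of 5 neighbours each, 1, 2, 1 and 1 passed for M91652complete_seq_g_at, rc_AA852004_s_at, rc_AI012265_i_at and rc_AI232783_s_at. The 1 of rc_AI012265_i_at, amygdala against cortex, did not pass without the 3 cortical arrays numbered 3 (0.29, adjusted p = 0.116, limma). The 4 probe sets had pairwise correlations between 0.69 and 0.95 over the 18 group means, the highest for rc_AA852004_s_at and rc_AI232783_s_at.

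Cocaine access was then compared within each region, which asks whether the genes of glutamate uptake and recycling differ with the daily hours of access. Glul fell in the lateral hypothalamus with short access by 2 probe sets and with long access by 3. In the 2 probe sets that fell with both, the fall with long access was the smaller. Slc1a1 and Slc1a2 had no call in any region, and Slc1a3 had 1. For long against no access 3 of 73 tests over the 6 regions passed, all lower, against 5.83% of the tests over all probe sets. For short against no access 2 of 73 passed, both lower, against 4.18%. For long against short access 3 of 73 passed, all higher, against 2.27%. The 3 comparisons of a region share arrays, and every call lay in the lateral hypothalamus. There 12 of the 14 probe sets were tested, and the shares of all probe sets called were 29.7% for long against no access (16.3% lower), 22.4% for short against no access (12.1% lower) and 8.91% for long against short access (5.01% higher). Against these stand 3, 2 and 3 of the 12, and the 2 counts of falls are not far from the shares over the whole array.

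**Figure D2:**
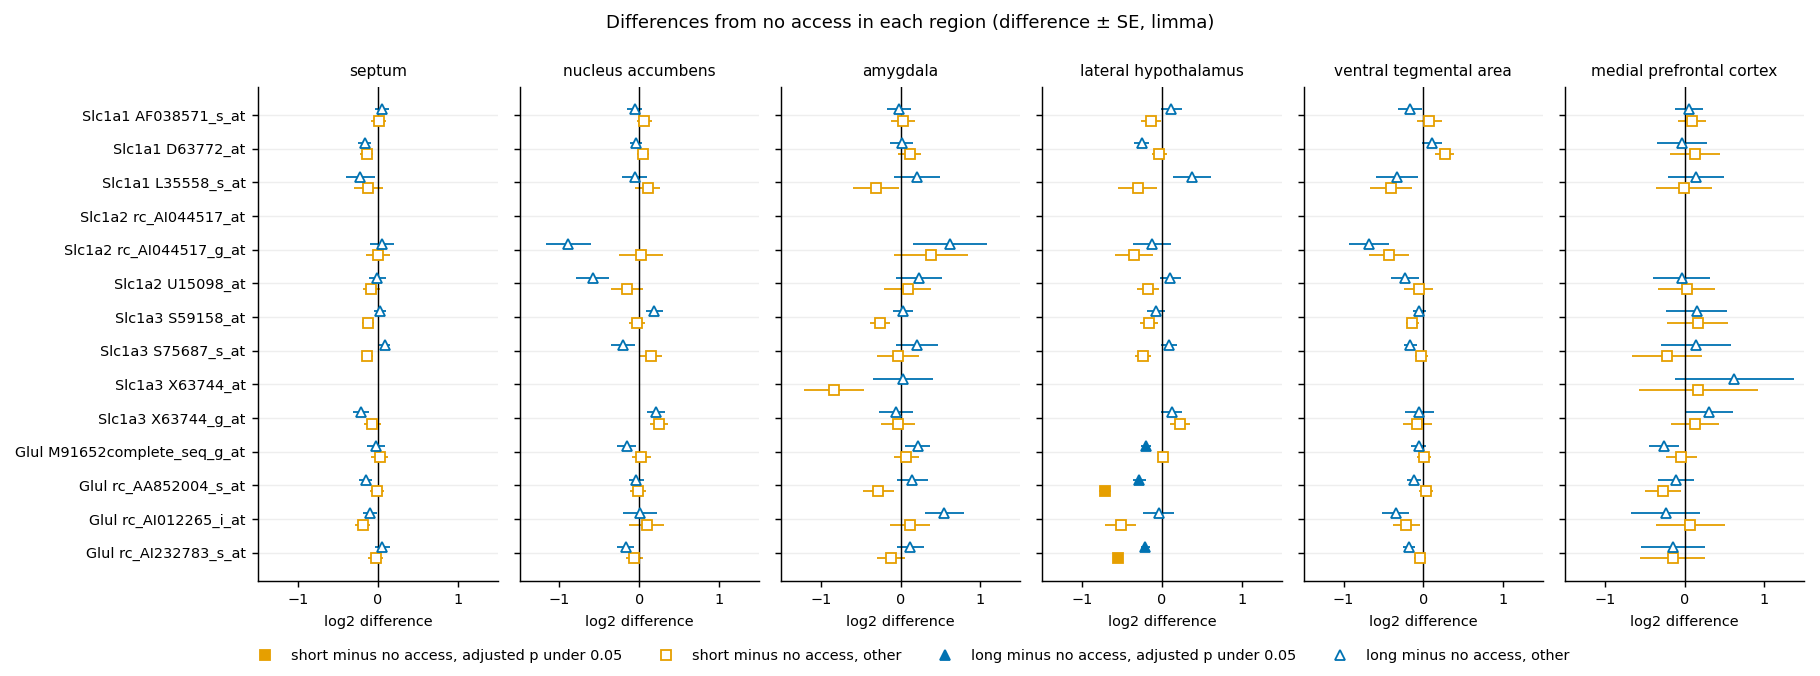
Log2 difference from no access (x axis, ± SE) of each probe set bright enough to test (y axis) in the 6 regions, for short access (orange squares) and long access (blue triangles), with filled symbols at an adjusted p under 0.05 (limma). All 5 filled symbols are Glul in the lateral hypothalamus, between -0.71 and -0.20, and the farthest open symbols of long access below 0 are Slc1a2 ones, first in the nucleus accumbens, then in the ventral tegmental area.

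In the lateral hypothalamus rc_AI232783_s_at, a Glul probe set, read 13.37, 13.45, 13.36 and 13.50 with no access, 12.88, 12.87, 12.85 and 12.85 with short access and 13.20, 13.17, 13.22 and 13.26 with long access. The 3 groups did not overlap, with short access lowest and long access in between. It was lower with short than with no access by 0.56 ± 0.05 (log2 difference -0.56, SE), 1.47-fold, at an adjusted p of 9.21e-06 (limma). With long access it was lower by 1.16-fold (-0.21 ± 0.05, adjusted p = 0.00795), and it was higher with long than with short access by 0.35 (adjusted p = 0.000944).

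rc_AA852004_s_at, the second Glul probe set, read 11.64, 11.66, 11.81 and 11.64 with no access, 11.00, 10.82, 11.03 and 11.05 with short access and 11.45, 11.32, 11.35 and 11.51 with long access. Its groups fell in the same order without overlap. It was 1.64-fold lower with short than with no access (-0.71 ± 0.08, adjusted p = 1.09e-05, limma) and 1.22-fold lower with long access (-0.28 ± 0.08, adjusted p = 0.0127). Long access exceeded short access by 0.43 (adjusted p = 0.00295).

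The other 2 Glul probe sets differed from this pattern. M91652complete_seq_g_at read 13.03, 13.00, 13.01 and 13.06 with no access, 13.00, 13.16, 12.98 and 13.00 with short access and 12.67, 12.87, 12.87 and 12.89 with long access. Here long access was the lowest group, 0.20 ± 0.06 below no access (log2 difference -0.20, adjusted p = 0.0305, limma), and short access differed from no access by 0.01 (adjusted p = 0.918). The call for long access was lost when long access replicate 1 was left out (-0.15, adjusted p = 0.0887) and when no access replicate 1, 3 or 4 was (adjusted p between 0.0509 and 0.0666). rc_AI012265_i_at read 8.45 to 9.32 with no access, 8.14 to 8.56 with short and 8.44 to 9.08 with long access. Its difference of -0.51 ± 0.19 for short against no access had an adjusted p of 0.0737, and its groups overlapped. The glutamine synthetase transcript was thus lowest with short access by 3 of its 4 probe sets, of which 2 passed the test, and not by M91652complete_seq_g_at.

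Beside these falls stand the control probe sets of the lateral hypothalamus given above. With spike-in signal added to the model no Glul probe set passed for long against no access (adjusted p between 0.0900 and 0.476, limma). The differences of rc_AI232783_s_at, rc_AA852004_s_at and M91652complete_seq_g_at were then -0.30, -0.35 and -0.17, so that the first 2 were larger than without it and the calls were lost. For short against no access both kept their call (-0.62 and -0.76, adjusted p = 0.000248 and 0.000937), and so did both for long against short access. Among 11 astrocyte genes on the array, Atp1b2 (1.39) and the potassium channel Kcnj10 (0.91) rose with long against no access and Apoe (-0.61), Vim (-0.84), Cntf (-0.62) and Mt2A (-0.41) fell. With short against no access Atp1b2 rose (0.50) and the gap junction gene Gja1 fell (-0.56). With long against short access 2 of the 11 rose and 0 fell, at a median of -0.08 (0.02 over all probe sets tested). The 11 had median differences of -0.24 with long and -0.28 with short against no access. Their summed signal lay between 56919 and 64557 with no access and between 47167 and 58942 with short access. With long access it lay between 41240 and 52974. The brightest genes weigh most in such a sum, and none of the 11 was at the floor in all arrays. Genes of other cells moved in the same arrays. Of 6 oligodendrocyte genes 2 rose and 3 fell with long against no access, and 3 rose and 1 fell with short against no access. Their median differences were -0.09 and 0.23. Of 8 neuron genes 2 rose and 2 fell with long access and 2 rose with short access, with medians of -0.10 and -0.14. Over all probe sets tested in the 2 comparisons with no access the medians were -0.03 and -0.07. The vessel gene Slc2a1, the glucose transporter of the blood-brain barrier, fell in both (-0.71 and -0.51), and the 1 microglial gene on the array was too dim to test. Fewer astrocytes and less transcript per astrocyte cannot be told apart in such tissue, and the part of cell content in the Glul values was not tested.

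**Figure D3:**
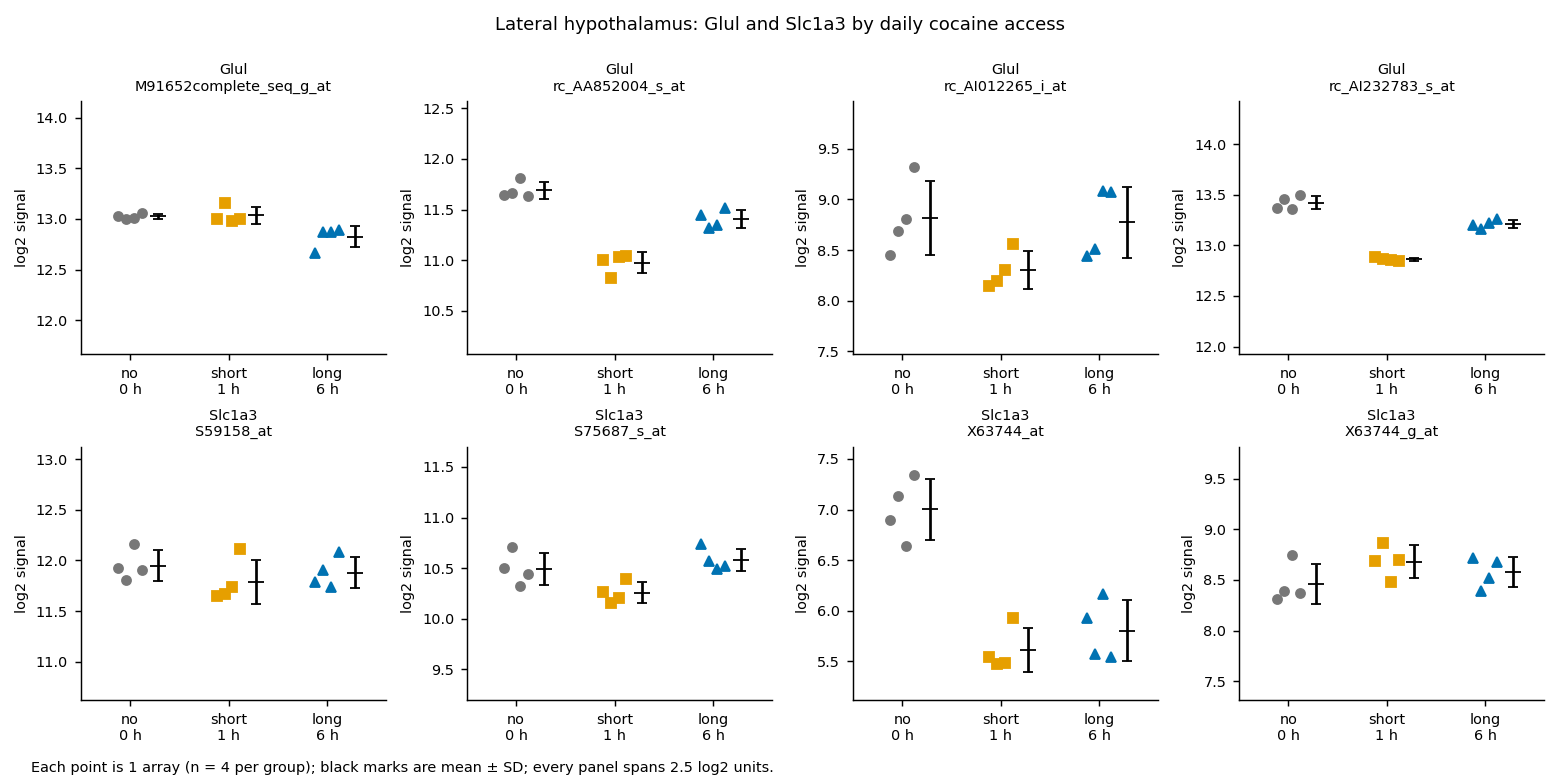
Log2 signal (y axis) of the 4 Glul and the 4 Slc1a3 probe sets in the lateral hypothalamus with no, short and long access (x axis), with 1 point per array and mean ± SD in black (n = 4). Glul rc_AI232783_s_at and rc_AA852004_s_at are lowest with short access without overlap, Glul M91652complete_seq_g_at is lowest with long access, and Slc1a3 X63744_at is highest with no access.

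Slc1a3 in the lateral hypothalamus depended on the probe set. X63744_at read 6.90, 7.14, 6.64 and 7.34 with no access, 5.55, 5.48, 5.49 and 5.93 with short access and 5.93, 5.57, 6.17 and 5.54 with long access. All 8 arrays of rats with cocaine lay below all 4 without, at signals close to the floor. The 4 without cocaine are the arrays whose antisense controls read 8.13 on average, against 6.84 with short and 6.75 with long access, and the part of that in these values was not tested. Its regional mean of 6.14 was below the minimum for testing. Without that minimum it was lower with long access by 1.20 (log2 difference -1.20, adjusted p = 0.00196, limma) and with short access by 1.39 (-1.39, adjusted p = 0.00123). X63744_g_at, S59158_at and S75687_s_at had no such difference: with long against no access they differed by between -0.07 and 0.12, and none passed for either group. S75687_s_at read 10.50, 10.71, 10.32 and 10.44 with no access, 10.27, 10.15, 10.21 and 10.40 with short access and 10.74, 10.57, 10.49 and 10.52 with long access. Its short access arrays were lower on average than those with no access, with overlap and without a call. Long exceeded short access by 0.32 (adjusted p = 0.0489), a call lost when any 1 of 9 of the 12 arrays was left out (adjusted p up to 0.139) and with the actin ratio as a covariate (0.21, adjusted p = 0.289).

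Whether the lateral hypothalamus differed from the other 5 regions was tested directly. Glul rc_AA852004_s_at fell more there with short against no access, by -0.71 in the lateral hypothalamus against -0.11 in the mean of the others, a difference of -0.61 ± 0.14 (adjusted p = 0.00484, limma). Slc1a3 X63744_at was below the minimum signal in the lateral hypothalamus and entered this test only through the amygdala and the cortex, where it was high. It fell more in the lateral hypothalamus with long access, -1.20 against 0.32, a difference of -1.52 ± 0.43 (adjusted p = 0.0145). With short access its difference was -1.32 ± 0.43 (adjusted p = 0.0483), a call lost when any 1 of 46 of the 63 arrays was left out (adjusted p up to 0.125). Over all regions 1 of 78 such tests passed for long against no access, 2 of 78 for short against no access and 0 of 78 for long against short access (8 at an unadjusted p under 0.05), where 2.14%, 1.18% and 0.0389% of all probe sets passed. In the lateral hypothalamus itself 12.8% of all probe sets passed for long against no access, 6.88% for short against no access and 0.117% for long against short access. For Glul rc_AI232783_s_at the difference with short access was -0.47 and did not pass (adjusted p = 0.153, limma). It passed without the 3 cortical arrays numbered 3 (-0.48, adjusted p = 0.00974) and without the short access one of them alone (-0.55, adjusted p = 0.0388).

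In the nucleus accumbens Slc1a2 did not pass the test. The arrays read transcript and not transporter protein, so these values do not test the known outcome for GLT1 given at the start. U15098_at read 8.88, 8.29, 8.79 and 8.56 with no access, 8.85, 8.06, 8.93 and 8.06 with short access and 8.10, 7.90, 8.25 and 7.92 with long access. Every long access array lay below every no access array, while short access spanned both. The difference of long against no access was -0.59 ± 0.20, 1.5-fold, with an adjusted p of 0.188 (unadjusted p = 0.0125, limma). rc_AI044517_g_at read 8.63, 7.55, 8.53 and 7.96 with no access, 8.87, 7.63, 8.39 and 7.89 with short access and 7.33, 7.65, 6.98 and 7.15 with long access. Long differed from no access by -0.89 ± 0.28 (adjusted p = 0.151, unadjusted p = 0.00633) and from short access by -0.91 (adjusted p = 0.361), with 1 long access array inside the range of the others. No probe set of the whole array passed in this region in any of the 3 comparisons (0%), and both Slc1a2 values are given without a call.

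**Figure D4:**
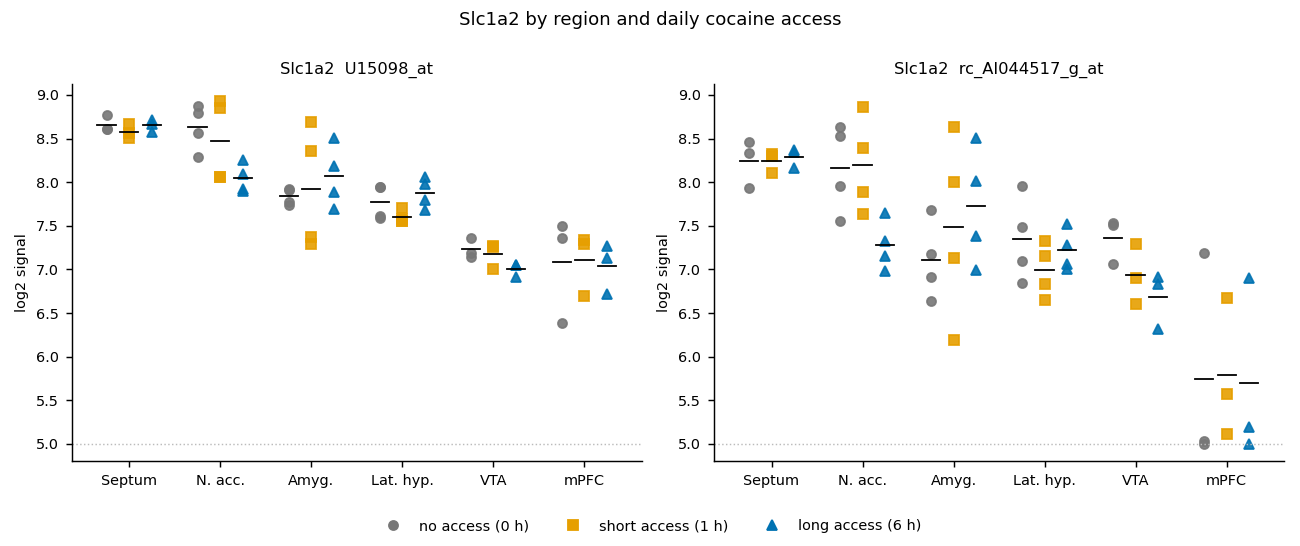
Log2 signal (y axis) of the 2 Slc1a2 probe sets above the floor in the 6 regions (x axis) with no access (grey circles), short access (orange squares) and long access (blue triangles), 1 point per array and a bar at each group mean. The long access arrays of the nucleus accumbens lie between 7.90 and 8.25 for U15098_at, against 8.29 to 8.88 with no access, and the short access arrays of the amygdala spread between 6.19 and 8.63 for rc_AI044517_g_at.

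In the ventral tegmental area rc_AI044517_g_at read 7.53, 7.06 and 7.50 with no access, 7.29, 6.90 and 6.60 with short access and 6.91, 6.83 and 6.32 with long access. Long access was below no access without overlap, and the difference of -0.68 ± 0.25 had an adjusted p of 0.209 (limma). U15098_at differed there by -0.23. Of all probe sets 2.91% passed for long against no access in this region, 0.831% for short against no access and 2.63% for long against short access. None of the 12 tested here passed. The long and no access arrays did not overlap for 6 of the 12, against 24.1% of all probe sets tested in the region. Glul rc_AI232783_s_at was 1 of the 6, at -0.18 (adjusted p = 0.270, limma). The antisense controls of this region also moved with access, at 7.10 with no, 7.41 with short and 8.04 with long access. Bacterial spike-in controls rose in the same order, at 11.55, 11.95 and 12.32. What part the controls had in these values was not tested.

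In the amygdala none of 13 probe sets passed in any comparison, with 0.137% of all probe sets called for long against no access and 0% in the other comparisons. The farthest differences of long against no access were those of Slc1a2 rc_AI044517_g_at at 0.62 and Glul rc_AI012265_i_at at 0.55 (adjusted p at least 0.754 for all 13, limma). Arrays of 1 group lay far apart: rc_AI044517_g_at read 8.63, 8.00, 7.13 and 6.19 with short access and 8.51, 8.01, 7.38 and 7.00 with long access, and U15098_at and S75687_s_at split the same arrays in the same way. In the septum none of 12 passed, against 2.31% of all probe sets for long against no access, 1.90% for short against no access and 2.04% for long against short access, and all differences from no access lay between -0.22 and 0.08. The septum also had the smallest spread within groups, with a median SD of 0.09 over the probe sets, and the largest were 0.32 in the amygdala and 0.45 in the medial prefrontal cortex.

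In the medial prefrontal cortex none of 12 passed, nor did any probe set of the array (0%), and values of several probe sets split by array number. The 3 arrays numbered 3, whose actin ratio was high, were set against the mean of the other arrays of their group. Of the 14 probe sets 5 lay above it in all 3 groups, 6 lay below in all 3 and 3 were mixed. The same count was not made over all probe sets, and it is not read as particular to these genes. Probe sets of 1 gene went opposite ways. Slc1a3 X63744_at read 8.25 to 8.36 on these arrays against 6.07 to 7.65 on the others, and S59158_at 12.28 to 12.78 against 11.40 to 11.91, whereas S75687_s_at was lower on average by 0.87. Slc1a1 D63772_at read 10.86 to 11.35 against 10.26 to 10.57, while L35558_s_at was lower in all 3 groups. Slc1a2 U15098_at read 6.38 to 6.72 against 7.13 to 7.49, and Glul rc_AI232783_s_at 11.80 to 12.13 against 12.60 to 13.09, a fall that the Glul probe set M91652complete_seq_g_at, higher on array 3 in all 3 groups, did not share. In the amygdala the actin ratio also varied between arrays, and its part in the values of X63744_at was not tested. No access replicate 3, at a ratio of 0.62, read 8.13 for X63744_at, against 6.49 to 6.73 in the rest of its group. Short access replicates 1 and 4, at ratios of 0.59 and 0.51, read 6.50 and 6.40, and the other 2 short access arrays were lower.

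**Figure D5:**
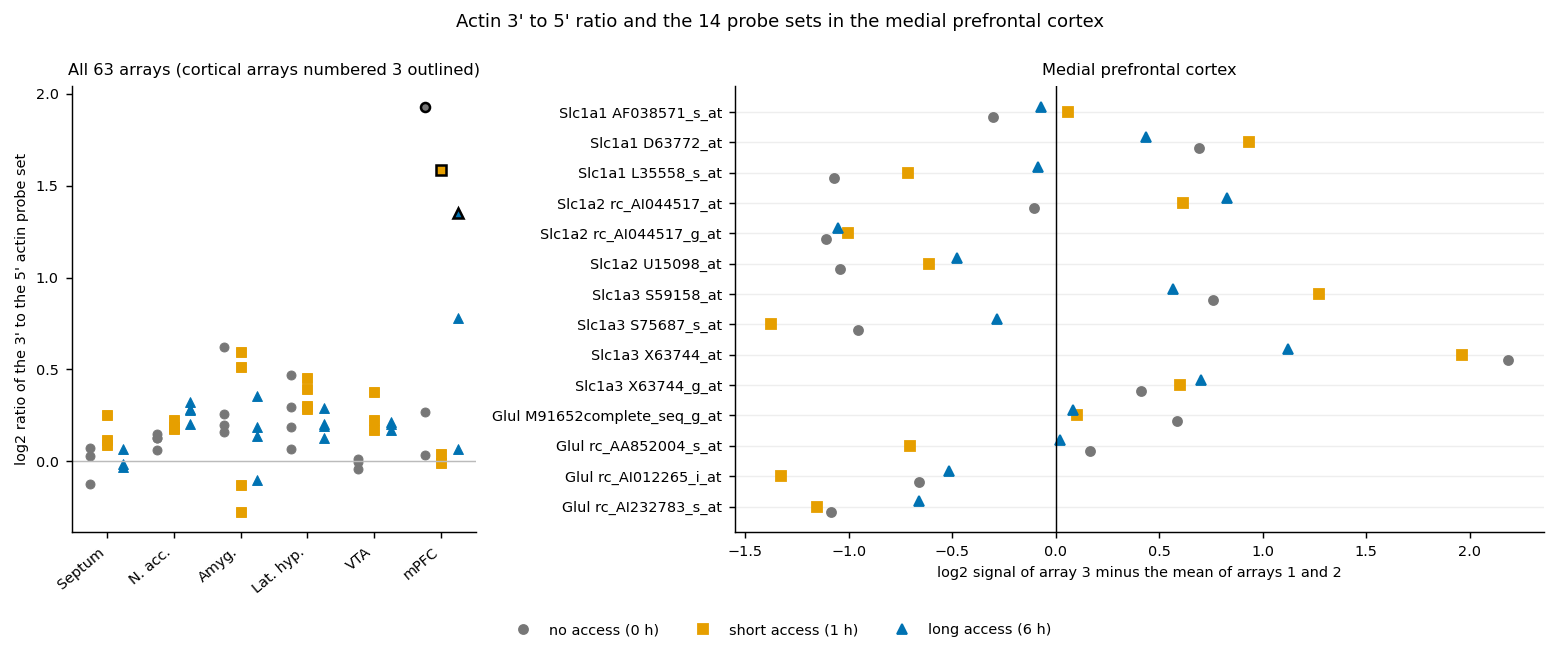
Left, log2 ratio of the 3' to the 5' actin probe set (y axis) of all 63 arrays by region (x axis), with the cortical arrays numbered 3 outlined. Right, log2 signal of array 3 minus the mean of arrays 1 and 2 in the medial prefrontal cortex (x axis) for each probe set (y axis) and access group, in which Slc1a3 X63744_at and Slc1a3 S75687_s_at lie farthest to the right and left, at up to 2.18 and -1.37.

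Without those 3 arrays 21 in place of 23 pairs of regions passed. Slc1a3 X63744_at lost its differences of the cortex from the lateral hypothalamus (-0.42) and nucleus accumbens (-0.59), Slc1a2 rc_AI044517_g_at that of the ventral tegmental area from the cortex (0.90) and Glul rc_AI012265_i_at that of the septum from the cortex (0.75). Slc1a1 gained calls for the ventral tegmental area against the cortex by AF038571_s_at (-1.02) and L35558_s_at (-1.08), so that all 3 Slc1a1 probe sets then differed by 2-fold or more between these regions. Among the 13 probe sets bright enough to test, the highest or lowest region changed for 4. In none of the 4 did the 2 regions pass the test against each other with or without these arrays. Glul rc_AI232783_s_at was then lowest in the amygdala (-0.12 against the cortex, 0.20 with all arrays), Slc1a2 U15098_at in the ventral tegmental area (-0.17, 0.06 with all arrays) and Slc1a3 S75687_s_at in the ventral tegmental area too (-0.21, 0.08 with all arrays). Slc1a3 X63744_at was then highest in the amygdala (0.14 against the cortex, -0.44 with all arrays).

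Other genes of glutamate and GABA handling were read from a list of 24, of which 8 were on the array and 6 were tested in the lateral hypothalamus. With long against no access 0 rose and 2 fell there, Glud1 (glutamate dehydrogenase, -0.31, adjusted p = 0.00675, limma) and Grm3 (a glutamate receptor of astrocytes, -0.26, adjusted p = 0.0498). None passed with short against no access or long against short access. Their median differences were 0.01, -0.20 and 0.01, against -0.03, -0.07 and 0.02 over all probe sets tested. In the other regions the only calls were 1 fall each with long and with short access in the septum.

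The genes whose pattern over the 18 group means was most like each probe set are given as a description, since these means share regions, arrays and access groups. Slc1a1 D63772_at was most like the activity-induced gene Nr4a1 (r = 0.94) and AF038571_s_at most like Egr1 (0.93), a transcription factor of the same kind. The third Slc1a1 probe set, L35558_s_at, was most like Slc8a2 (0.86). For Slc1a2 U15098_at it was Slc18a3 (0.91), the vesicular acetylcholine transporter, and for rc_AI044517_g_at the serotonin receptor Htr2c (0.93). Slc1a3 S59158_at and X63744_g_at were both most like Nxph1 (0.86 each), S75687_s_at most like Bok (0.92) and X63744_at most like Plcb1 (0.90). Glul rc_AI232783_s_at and rc_AA852004_s_at were both most like Pld1 (0.95 and 0.94), a phospholipase, and M91652complete_seq_g_at most like Enpp2 (0.87). For rc_AI012265_i_at it was Kcnj10 (0.92), which is on the astrocyte list used here. The 5 genes most like each of the other Glul probe sets include none from that list.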

How the data were processed

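The deposited files hold 1 signal intensity per probe set and array, not on a log scale, which per the submitters' processing notes the authors made with MAS5; its settings are not given in the sources used here. The trimmed mean of the deposited intensity lay between 250.8 and 251.3 on every array. The arrays were brought to a 2% trimmed mean of 500 over the 1263 probe sets that are not controls, lower values were set to 32, and values were put on a log2 scale. Testing within a region needed a mean equal to a signal of 100 or more. Fits of all arrays kept the 858 probe sets that met this in at least 1 region. The access groups of a region were fitted with limma (version 3.58.1, R 4.3.3). Pairs of regions and differences between regions came from 1 fit of 63 arrays in 18 groups. Both used an intensity trend and Benjamini-Hochberg adjustment over all probe sets tested, and were tested on simulated data.

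Every probe set of the 4 genes is named, with the most similar gene of most of them and the glutamate and astrocyte lists. These members and lists were chosen with earlier results of these data known. All 14 gene names matched RefSeq by Entrez identifier. Arrays have no counts or depth, and their number limits the precision. Replicate numbers were not taken to pair arrays: the mean correlation of same-numbered deviations was 0.42 in the medial prefrontal cortex, where the lowest was -0.05, and between 0.04 and 0.11 elsewhere. Alternatives varied the scaling, floor, minimum signal, trend, weights, block, samples, covariates and left-out arrays; those on the actin ratio, on the cortical arrays numbered 3 and on the lateral hypothalamus arrays without access in the pairs of regions were chosen after seeing the data. No batch or scan date was used here.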

Additional observations from a re-analysis of the deposited data

Results flagged for a closer look

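In 10 of 117 groups of 4 arrays, 1 array lay apart from the rest by Dixon's test at 95%, where chance gives about 1 in 20. In 3 more groups, of Slc1a2 rc_AI044517_at, the other 3 arrays were tied at the floor, which fixes the outcome. In the lateral hypothalamus these were Glul M91652complete_seq_g_at at 12.67 in long access replicate 1 (others 12.87 to 12.89) and at 13.16 in short access replicate 2 (others 12.98 to 13.00), and Glul rc_AA852004_s_at at 11.81 in no access replicate 3 (11.64 to 11.66). Slc1a3 X63744_at there read 5.93 in short access replicate 4 (5.48 to 5.55). In the amygdala Slc1a3 X63744_at read 8.13 and S59158_at 12.19 in the same array, no access replicate 3, and X63744_g_at read 7.88 in long access replicate 1 (8.82 to 8.86). In the nucleus accumbens Slc1a1 AF038571_s_at read 8.95 in long access replicate 3 (9.10 to 9.12), Slc1a3 S59158_at 11.36 in long access replicate 1 (11.71 to 11.77) and Glul rc_AI232783_s_at 13.05 in no access replicate 3 (13.17 to 13.19). The dim Slc1a2 probe set rc_AI044517_at left the floor in single arrays, at 5.76 and 5.43 in the nucleus accumbens (no access replicate 4 and short access replicate 1) and at 5.18 in the lateral hypothalamus (short access replicate 4).

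The lateral hypothalamus differed from the mean of the other 5 regions in 3 tests of the difference (limma). These were Slc1a3 X63744_at at -1.52 for long against no access and -1.32 for short against no access, and Glul rc_AA852004_s_at at -0.61 for short against no access. X63744_at lies near the floor and below the minimum signal in that region. It was tested only through the amygdala and the cortex, where it was high. Its call for short access was lost when any 1 of 46 of the 63 arrays was left out. The other 3 Slc1a3 probe sets did not differ in this way. No cause was tested.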

How the results depend on the processing

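For long against no access within regions the 3 calls became 1 with adjustment over 18 contrasts and 0 with spike-in signal in the model. When all arrays were fitted together the single call was Slc1a3 X63744_at, which that fit tests in the lateral hypothalamus, and no Glul probe set passed. The 2 short access calls of Glul held in all 14 alternatives other than the fits without 1 array. Leaving out the cortical arrays numbered 3 is among the 14 and cannot change a fit within the lateral hypothalamus. For long against short access 3 calls became 5 with a replicate block and 0 in 1 fit of all arrays. Leaving out 1 array gave 2 to 3, 2 to 3 and 2 to 3 calls in the 3 comparisons. The 23 pairs of regions became 13 with quantile normalization, 73 at 1.5-fold and 135 with no fold threshold, and 20 to 24 without 1 array. Shares over all probe sets were not taken under these settings. Differences between regions for long against no access fell to 0 calls, where there had been 1, with values as deposited, quantile normalization and a minimum of 200. For short against no access the 2 calls became 1 under these 3 settings, with no filter and with no intensity trend, and 1 to 2 without 1 array, and 3 without the cortical arrays numbered 3. Differences between regions for long against short access had 0 calls under each of these settings too (limma; 8 at an unadjusted p under 0.05 with the settings of the report). Glul M91652complete_seq_g_at in the lateral hypothalamus reversed for short against no access with quantile normalization (-0.13, adjusted p = 0.0243, limma), and ranged between -0.030 and 0.029 without 1 array. Slc1a3 X63744_at reversed for lateral hypothalamus against cortex in no access arrays only (0.12). The causes were not tested. As a random block over regions the replicate block left 23, 1, 2 and 0 calls (consensus correlation 0.0206), and within regions it gave 4 calls for long against no access and 3 for short against no access.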
